A study of Arabidopsis thaliana with 18 samples.

Results

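The warm response of elf3-7 seedlings was set against that of wild-type Columbia (WT) seedlings in 12 of the 18 arrays of the series. For each probe set, the difference between 23 °C and 16 °C in WT was subtracted from the same difference in elf3-7. The result, called the difference of differences, is positive where a transcript was raised more, or lowered less, by warmth in the mutant. Whole 10-day-old Arabidopsis thaliana seedlings had been grown from cold-treated seed on agar plates in continuous white light, at 16 °C or at 23 °C throughout. The groups were WT at 16 °C, WT at 23 °C, elf3-7 at 16 °C and elf3-7 at 23 °C, each with 3 arrays lettered A, B and C from separately prepared RNA. The arrays of tfl1-1, another mutant grown the same way, entered the model only for its estimate of the spread, and once to choose warm-responsive probe sets.

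ELF3 encodes a scaffold protein that joins ELF4 and the transcription factor LUX in the evening complex of the circadian clock. The complex represses transcription of other clock genes, such as GI, and of genes for elongation growth, and it becomes less active in warmth. Mutants without ELF3 function have long hypocotyls, flower early and lose clock rhythms in continuous light. elf3-7 is known in the files by its allele name only.

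The labels could be checked only in part. No probe set was named as ELF3, so the mutation itself was not seen in these data. GI, which the evening complex represses, was higher in elf3-7 at both temperatures, by 1.39 ± 0.21 at 16 °C (SE, log2 scale, n = 3 against 3, limma adjusted p = 0.00748) and by 1.84 at 23 °C (limma adjusted p = 0.0026). Both roots and green tissue were present, since the root marker PYK10 had group means between 11.65 and 12.18 and the leaf marker LHCB4.2 between 12.33 and 12.64. EXPA7, a root hair gene of the same marker list as PYK10, was dim, with group means between 3.51 and 5.03. A gene is called represented here where a probe set was named as that gene alone. Of the 22746 probe sets 8730 are unnamed here, so a gene that is not represented may still be on the array. No gene of the floral organ, seed or senescence marker lists was represented. Control transcripts of Bacillus, added during labelling, were bright in the 4 replicate C arrays (mean log2 value of 24 probe sets between 4.81 and 6.67) and dim in the other 8 (3.17 to 3.28), so replicate C was taken as a labelling batch. The labels name no batch, so the labelling batch below stands for replicate C against A and B. Each letter holds 1 array of every group, so this division crosses the groups evenly. The excess of 3′ over 5′ probe sets for actin and GAPDH, a sign of RNA quality, lay between 2.09 and 2.55 in replicate C and between 1.13 and 1.63 in A and B. Its difference of differences was 0.23, and its part in the results below was not tested.

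No probe set passed the test of a different warm response. Of 22746 probe sets, 0 (0.0%) were called at an adjusted p under 0.05 with limma, and the lowest adjusted p was 0.482. At an unadjusted p under 0.05 there were 542 probe sets (2.38%), of which 226 (0.994%) had a higher and 316 (1.39%) a lower response in elf3-7. In this fit, without a block or array weights, that share is below the 0.05 that the threshold itself would give where no response differed. The count was 866 with the labelling batch as a block and 1356 with array weights, so the share depended on the model. At an unadjusted p under 0.01 the fit without a block or weights gave 110 (0.484%), 41 higher (0.18%) and 69 lower (0.303%). With the labelling batch as a block the count called was again 0, with a lowest adjusted p of 0.165, and within replicates A and B it was 0 as well. The values below therefore describe these arrays, and none of the differences of differences is a gene that changed.

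The arrays limited how small a difference could be seen. The median standard error of a difference of differences was 0.23 on the log2 scale, and its 95% interval reached 0.49 to either side at the median. For 18181 probe sets (79.9%) the whole interval lay between -1 and 1, so for these a response that differed by more than 2-fold between the genotypes fell outside the interval. For the others the interval reached to or past that size. Seedlings were sampled whole, and fewer cells of a type cannot be told apart from less RNA per cell.

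Both genotypes responded to warmth. In WT, 1549 probe sets (6.81%) changed between 16 °C and 23 °C, 644 higher (2.83%) and 905 lower (3.98%). In elf3-7 1107 (4.87%) changed, 579 higher (2.55%) and 528 lower (2.32%). With the replicate letter as a block the counts were 3157 in WT and 2920 in elf3-7. The 574 called in both were 37.1% of the WT calls and 51.9% of the elf3-7 calls, and all 574 went the same way. With the block 1631 were called in both, 51.7% of the WT and 55.9% of the elf3-7 calls, and 1 of them went opposite ways. Across all probe sets the 2 responses had a Pearson r of 0.831, which describes 22746 points from arrays that share their replicate letters. A probe set called in one genotype and not in the other is not thereby shown to respond differently, since the test of the difference called none.

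Warm-responsive probe sets chosen in tfl1-1, whose arrays enter neither response, gave the size of both responses without using them for the choice. In tfl1-1, 2084 probe sets (9.16%) changed with warmth. The 906 that rose there (3.98%) had a median response of 0.50 in WT and 0.45 in elf3-7. The 1178 that fell there (5.18%) had a median of -0.69 in WT and -0.58 in elf3-7, and the fall was smaller in elf3-7 for 822 of them (69.8%). The replicates did not hold to that order. The median of the 1178 was -0.85 in WT and -0.61 in elf3-7 for replicate A, and -0.67 and -0.37 for replicate B, but -0.60 and -0.77 for replicate C. The size of the whole warm response was therefore not separated between the genotypes beyond the spread of the replicates.

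**Figure D1:**
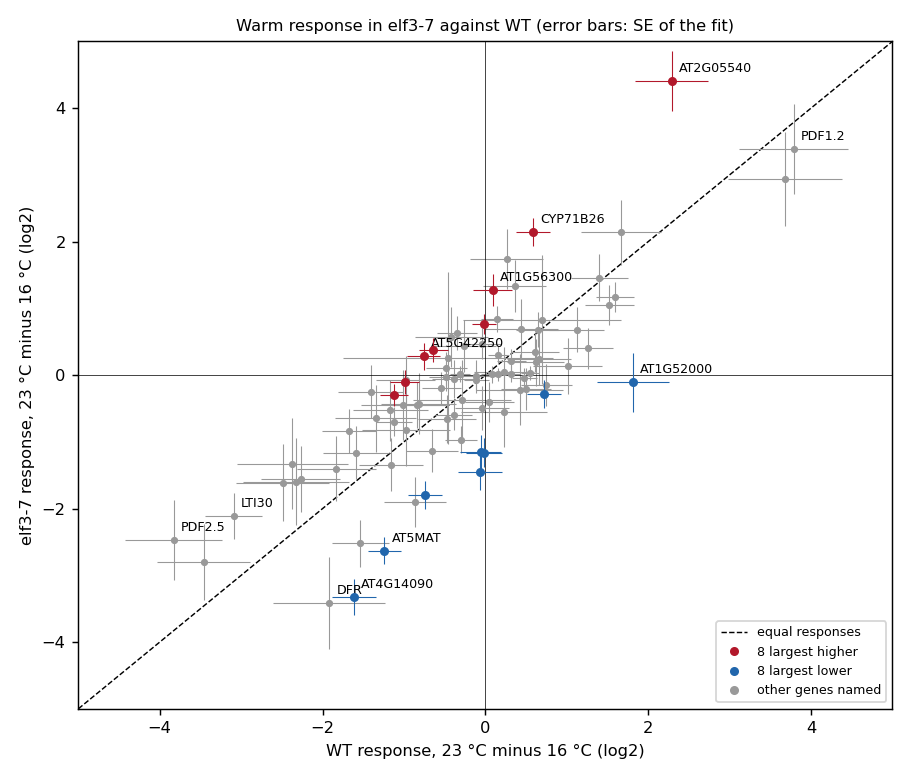
Response to warmth (23 °C minus 16 °C, log2) of the genes named in the text and of the other genes taken by the naming rule, in WT on the horizontal axis and in elf3-7 on the vertical axis; points are fitted differences, bars their SE (n = 3 arrays per group), and the dashed line marks equal responses. The 8 genes with the largest positive difference of differences at an unadjusted p under 0.01 (red) lie above the line and the 8 with the largest negative one (blue) below it, which is how they were chosen; AT2G05540 lies highest, at 2.29 in WT and 4.40 in elf3-7.

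Which of the 4 means made a difference was read from their order. A mean was said to stand apart where its gap to the next mean was at least 0.667 of the range of the 4. Among the 110 probe sets with an unadjusted p under 0.01, the elf3-7 mean at 16 °C stood apart and high in 20 (18.2%), against 2.16% of all probe sets. It stood apart and low in 5 (4.55%, against 2.58% of all). Each of the other means stood apart in a given direction in 2 or fewer, and the elf3-7 mean at 23 °C was never the low one. In the remaining 75 no single mean stood apart. With a gap of 0.5 of the range the elf3-7 mean at 16 °C was high in 30 (27.3%, against 6.14% of all probe sets) and low in 12 (10.9%, against 7.52%). At that gap the WT mean at 16 °C was also low in 12 and the WT mean at 23 °C low in 8, so the low elf3-7 mean at 16 °C was no more frequent than the low WT mean, and 34 had no mean apart. The gap between the genotypes was larger at 16 °C than at 23 °C in 55 of the 69 with a lower difference (79.7%) and in 20 of the 41 with a higher one (48.8%), against 50.9% of all probe sets. These probe sets were chosen by the difference of differences, of which each mean is a part, so the shares are a description.

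**Figure D2:**
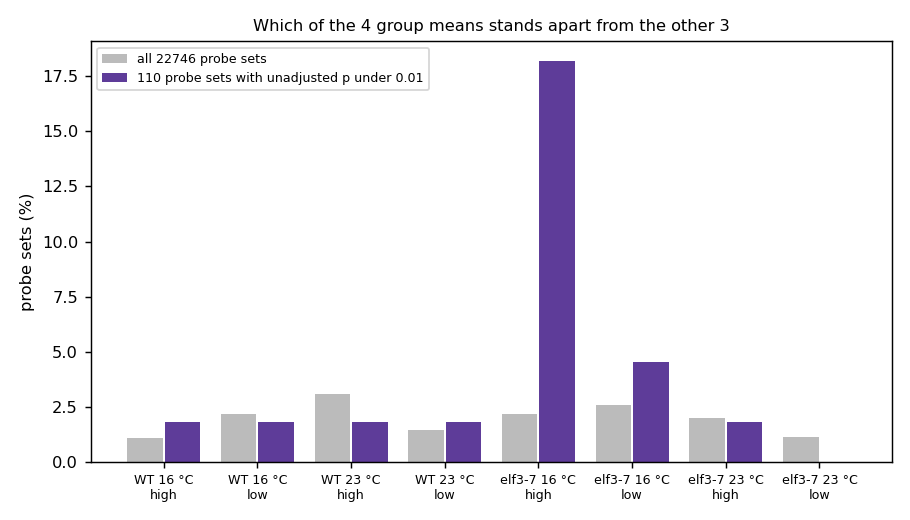
Share of probe sets (%) in which 1 of the 4 group means stood apart from the other 3, by group and direction, for all probe sets (grey) and for the 110 with an unadjusted p under 0.01 for the difference of differences (purple). The highest bar is the elf3-7 mean at 16 °C standing high, at 18.2% of the 110 against 2.16% of all probe sets.

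More probe sets were called between the genotypes at 16 °C than at 23 °C, a contrast of counts that was not itself tested. At 16 °C 61 probe sets (0.268%) differed between elf3-7 and WT, 35 higher (0.154%) and 26 lower (0.114%) in the mutant. At 23 °C 7 did (0.0308%), 1 higher (0.0044%) and 6 lower (0.0264%). With the replicate letter as a block the count at 23 °C was 10, 2 higher and 8 lower, and at 16 °C, where letters were not taken as pairs, it was 120. Leaving out 1 array gave 18 to 65 at 16 °C and 3 to 6 at 23 °C. The count at 16 °C was 25, 28 and 18 without WT replicate A, B or C at 16 °C, and 28 and 22 without elf3-7 replicate A or B at 16 °C. Over all probe sets the gap between the genotypes was larger at 16 °C in 50.9%. All 7 were also called at 16 °C, in the same direction. Of the 61, 57 had a smaller difference at 23 °C, where their median absolute difference was 0.41 against 1.32 at 16 °C. Because the 61 were chosen by their difference at 16 °C, a smaller value at 23 °C would arise from that choice as well, and it is given with no test. GI was among the 7, as was the locus AT1G43590.

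Genes for anthocyanins, the red and purple pigments that seedlings build up in the cold, had the lowest median difference of differences of the lists with at least 3 genes. Of 26 genes on the flavonoid and anthocyanin list 7 were represented, all 7 had a value below 0 (51.9% of all genes did), and the median was -0.97 against -0.0044 over all probe sets. None of the 7 passed the test, and 2 had an unadjusted p under 0.05 (2.34% of all genes). The median by replicate was -0.11 in A, -0.71 in B and -1.54 in C. It was -0.68 within replicates A and B, -0.623 without the replicate C array of WT at 23 °C and -0.595 with dim probe sets left out. The highest of the 4 means was that of elf3-7 at 16 °C in all 7. The share of all probe sets with that highest mean was not counted. That mean did not stand apart at 0.667 of the range in AT4G14090, AT5MAT, DFR or UF3GT. At 0.5 it stood apart in AT4G14090 and AT5MAT but not in DFR or UF3GT.

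AT4G14090, an anthocyanin glucosyltransferase, had log2 values of 6.80, 6.70 and 6.96 in WT at 16 °C and 4.76, 5.45 and 5.37 in WT at 23 °C. In elf3-7 it had 8.52, 8.94 and 8.66 at 16 °C and 5.10, 6.13 and 4.89 at 23 °C. The 3 mutant arrays at 16 °C lay above every other array, and at 23 °C the genotypes overlapped. The gene fell by 1.62 with warmth in WT (limma adjusted p = 0.00595) and fell by 3.33 in elf3-7 (limma adjusted p = 2.91e-05). At 16 °C it was higher in elf3-7 by 1.89 (limma adjusted p = 0.00748), a 3.7-fold difference, and at 23 °C its difference was 0.18 (limma adjusted p = 0.984). The difference of differences was -1.70 ± 0.39 (SE), with an unadjusted p of 0.000553 in limma and an adjusted p of 0.834, and it was -1.39, -1.56 and -2.17 in replicates A, B and C.

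AT5MAT, which encodes a malonyltransferase acting on anthocyanins, showed the same order of arrays. Its values were 5.27, 5.68 and 5.48 in WT at 16 °C, 3.96, 4.16 and 4.57 in WT at 23 °C, 6.67, 6.83 and 7.18 in elf3-7 at 16 °C and 4.16, 4.61 and 4.02 in elf3-7 at 23 °C. The mutant at 16 °C again lay above all other arrays, and the genotypes overlapped at 23 °C. The gene fell by 1.24 in WT (limma adjusted p = 0.00468) and fell by 2.63 in elf3-7 (limma adjusted p = 2.66e-05), and it was higher in elf3-7 at 16 °C by 1.42 (limma adjusted p = 0.00568). The difference of differences was -1.39 ± 0.28 (SE), with a limma adjusted p of 0.73.

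DFR, the dihydroflavonol reductase at the entry to anthocyanin synthesis, spread more widely. Its values were 7.55, 7.02 and 7.14 in WT at 16 °C, 3.64, 5.69 and 6.63 in WT at 23 °C, 8.68, 9.32 and 8.60 in elf3-7 at 16 °C and 4.70, 6.71 and 4.94 in elf3-7 at 23 °C. At 16 °C the mutant lay above WT without overlap, and at 23 °C the WT arrays alone spanned 3.64 to 6.63. The gene fell by 3.42 in elf3-7 (limma adjusted p = 0.0148), while the WT difference of -1.92 did not pass (limma adjusted p = 0.111). Its difference of differences was -1.50 ± 0.98 (SE), and it ran from -0.07 in replicate A to -3.16 in replicate C. UF3GT, another glycosyltransferase of the pathway, fell by 1.54 in WT and fell by 2.52 in elf3-7 (limma adjusted p = 0.0193 and 0.00164), with a difference of differences of -0.97 ± 0.49 (SE).

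The remaining 3 members had differences of differences nearer to 0. The flavonoid glycosyltransferases UGT78D2 and UGT78D1 had -0.21 and -0.19, and the chalcone isomerase-like gene CHIL had -0.18. In each of them the elf3-7 arrays at 16 °C lay above the WT arrays without overlap, by 0.41, 0.46 and 0.43, but none of these genotype differences passed the test. How often all probe sets had this order of arrays was not counted. Within replicates A and B alone, UGT78D1 had 0.15 and CHIL 0.00, so neither kept a value below 0.

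**Figure D3:**
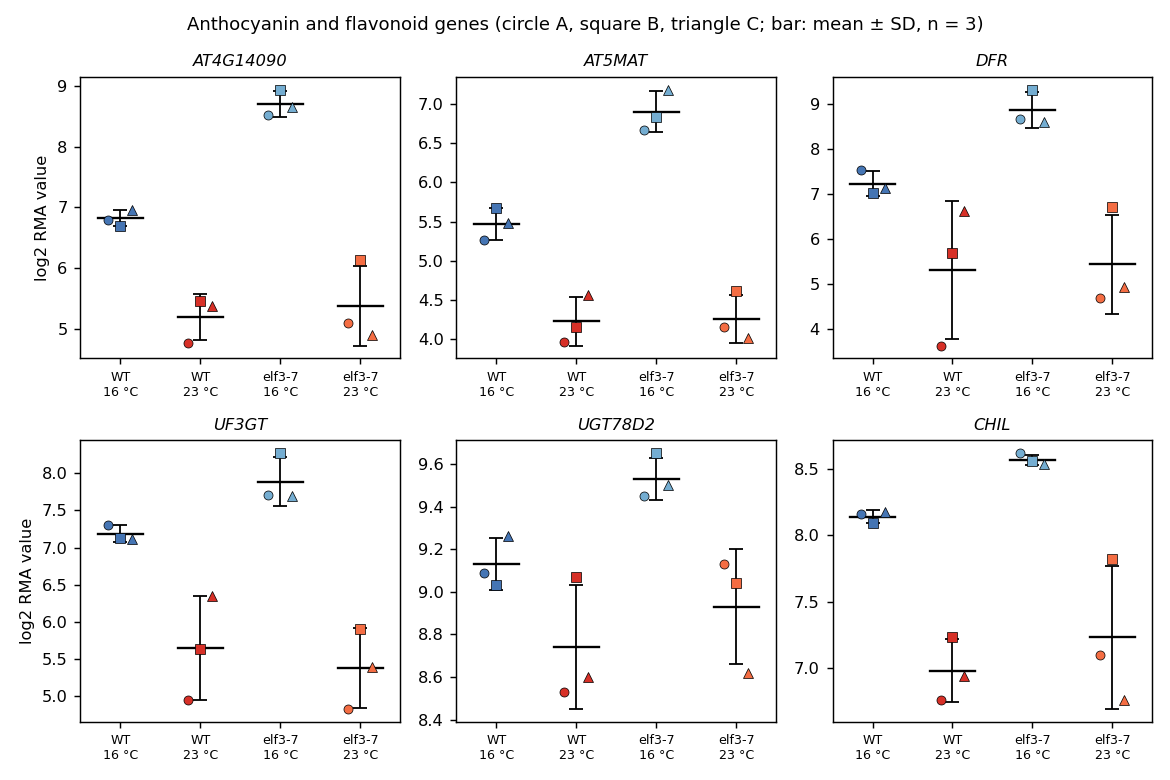
Log2 RMA values of 6 of the 7 represented flavonoid and anthocyanin genes in the 12 arrays (circle, square and triangle for replicates A, B and C), with the mean (line) and SD (bar, n = 3) of each group. In each panel the 3 elf3-7 arrays at 16 °C lie above all 9 other arrays, and at 23 °C the genotypes overlap. How often all probe sets had this order was not counted.

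Other genes with a lower difference of differences had the same high mean. AT3G61930 had 5.95, 6.44 and 5.87 in elf3-7 at 16 °C, against 4.79, 4.27 and 4.42 in WT, and it was higher there by 1.59 (limma adjusted p = 0.00376). Its difference of differences was -1.05, and the genotypes did not overlap at either temperature. AT1G23140 and AT2G37870 were also higher in elf3-7 at 16 °C, by 1.40 and 1.32 (limma adjusted p = 0.0124 and 0.0435), and had differences of differences of -1.14 and -1.09. In both of these the WT means hardly differed between temperatures, by -0.02 and -0.06. AT1G49570, a class III peroxidase gene listed here by locus code, had 4.99, 5.50 and 4.20 in elf3-7 at 16 °C and between 3.18 and 4.01 in the other 9 arrays. Its difference of differences was -1.38 ± 0.39 (SE), but its genotype difference at 16 °C did not pass (limma adjusted p = 0.091).

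AT1G52000 and AT1G43590 were the 2 of the 8 lowest genes with another order of means. AT1G52000, a jacalin-type lectin gene, had the largest negative value of the named genes, -1.92 ± 0.63 (SE). It rose in WT by 1.81 (limma adjusted p = 0.0277), from 5.13, 6.09 and 6.05 to 7.45, 7.39 and 7.85, while elf3-7 had 6.94, 6.99 and 7.27 at 16 °C and 6.17, 6.40 and 8.29 at 23 °C. No single mean stood apart at 0.667 of the range, and at 0.5 it was the low WT mean at 16 °C. AT1G43590 was lower in elf3-7 at both temperatures, with differences of -1.34 at 16 °C and -2.34 at 23 °C (limma adjusted p = 0.014 and 0.000434), without overlap of the genotypes. Its difference of differences of -0.99 came from a WT mean that was 0.72 higher and a mutant mean that differed by -0.28 at 23 °C, neither of which passed the test, though the WT difference did with the replicate block (limma adjusted p = 0.0303).

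Among the 8 named genes with the largest higher difference of differences, 3 had an elf3-7 mean at 16 °C that stood low by at least 0.5 of the range. CYP71B26, a cytochrome P450, had the lowest p of the named genes. Its values were 7.05, 7.28 and 7.63 in WT at 16 °C, 7.68, 8.18 and 7.83 in WT at 23 °C, 6.19, 5.70 and 6.18 in elf3-7 at 16 °C and 8.38, 7.75 and 8.40 in elf3-7 at 23 °C. The mutant at 16 °C lay below all other arrays, and the genotypes overlapped at 23 °C. CYP71B26 rose with warmth in elf3-7 by 2.15 (limma adjusted p = 0.000131), while the WT difference was 0.58 (limma adjusted p = 0.118). Its difference of differences was 1.58 ± 0.30 (SE), with an unadjusted p of 9.95e-05 and an adjusted p of 0.73 in limma, and it was 1.56, 1.15 and 2.02 in replicates A, B and C. Of 24 cytochrome P450 genes represented, it and CYP71B25, at -0.26, had an unadjusted p under 0.05 (2.34% of all genes did), and the median of the family was -0.04.

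AT2G05540, a glycine-rich protein gene, had the largest positive value of the named genes, 2.11 ± 0.64 (SE). It had 9.87, 8.81 and 8.86 in WT at 16 °C, 12.03, 11.67 and 10.71 in WT at 23 °C, 7.16, 6.71 and 6.02 in elf3-7 at 16 °C and 11.50, 10.45 and 11.15 in elf3-7 at 23 °C. It rose in both genotypes, by 2.29 in WT and 4.40 in elf3-7 (limma adjusted p = 0.0108 and 0.000203). At 16 °C it was lower in elf3-7, with a difference of -2.55 (limma adjusted p = 0.0287), and the genotypes overlapped at 23 °C. AT3G29760 had 5.96, 5.51 and 6.13 in elf3-7 at 16 °C and between 6.46 and 6.84 in the other 9 arrays, with a difference of differences of 0.79.

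In 4 of the other 5 higher genes WT fell with warmth and elf3-7 did not pass the test. AT1G20030, a thaumatin-like gene, fell by 0.99 in WT (limma adjusted p = 0.00759) and had a difference of -0.10 in elf3-7. AT2G16980 fell by 1.12 in WT (limma adjusted p = 0.00356) against -0.30 in elf3-7, and AT5G42250, an alcohol dehydrogenase gene, fell by 0.76 in WT (limma adjusted p = 0.0344) against 0.28. AT3G51660 fell by 0.64 in WT (limma adjusted p = 0.0479) against 0.38. Their differences of differences were 0.88, 0.82, 1.05 and 1.03, and in none of the 4 did the genotypes differ at either temperature by the test. AT1G56300, a gene for a DnaJ-type chaperone, rose in elf3-7 by 1.27 (limma adjusted p = 0.012) and had 0.09 in WT. It had 8.29, 8.05 and 8.79 in elf3-7 at 23 °C, above the 7.99, 7.91 and 7.38 of WT.

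LEA18, a late embryogenesis abundant protein gene, had a large genotype difference at 16 °C. It had 3.50, 4.09 and 4.00 in elf3-7 against 7.13, 6.23 and 6.78 in WT, a difference of -2.85 (limma adjusted p = 0.0134). At 23 °C elf3-7 had 4.83, 4.97 and 7.00 and WT 7.10, 6.86 and 6.97, so the mutant arrays were split and only the replicate C array reached the WT values. LEA18 rose in elf3-7 by 1.74 (limma adjusted p = 0.041), and its difference of differences of 1.47 ± 0.64 (SE) was 2.81 in replicate C and 0.26 in replicate B.

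**Figure D4:**
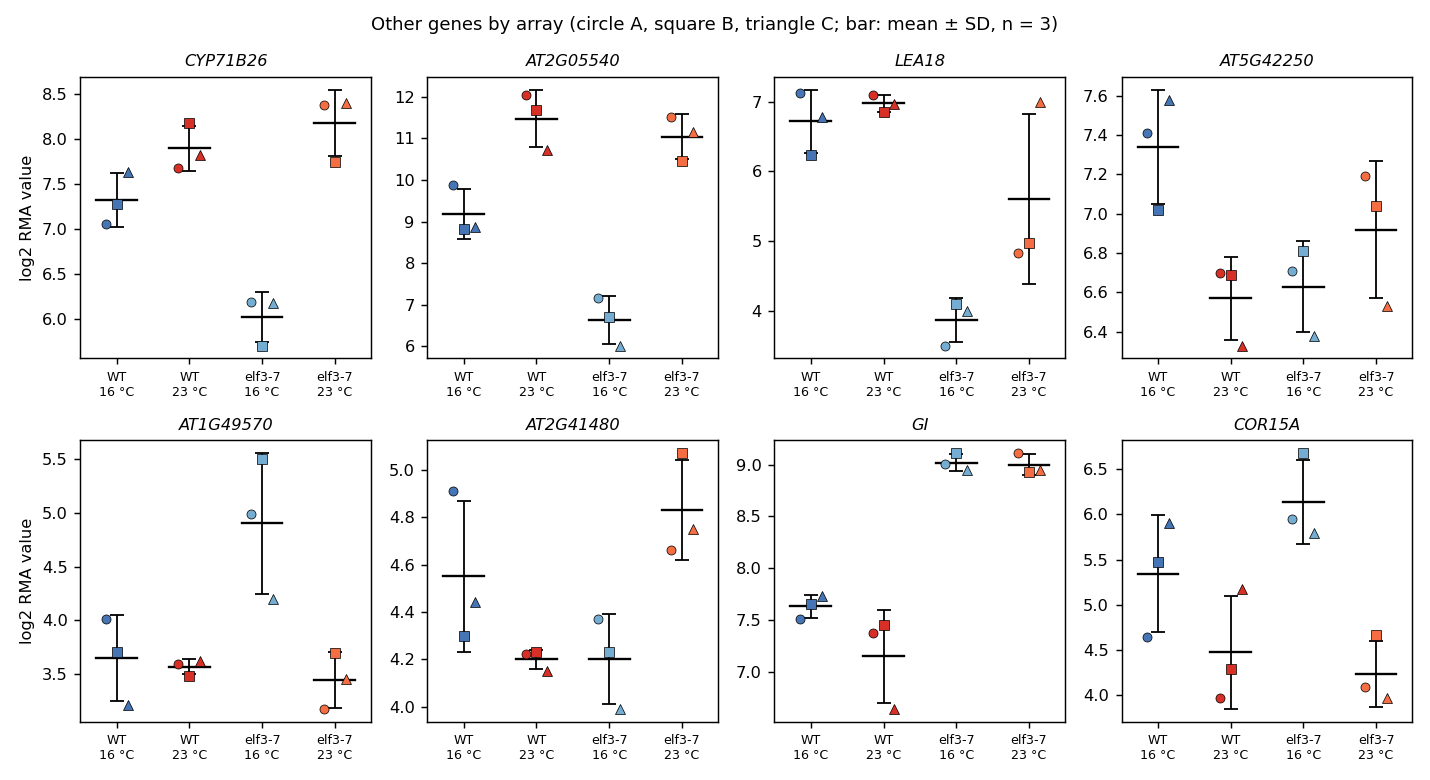
Log2 RMA values of 8 further genes in the 12 arrays (circle, square and triangle for replicates A, B and C), with the mean (line) and SD (bar, n = 3) of each group; the vertical scale differs between panels. CYP71B26, AT2G05540 and LEA18 are low in elf3-7 at 16 °C, AT1G49570 is high there, and GI is higher in elf3-7 at both temperatures.

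Clock and flowering genes were thinly represented among the probe sets named here, which does not show that the array lacks them. No probe set was named as a gene of the morning clock list, and of the evening clock list only GI was named. GI had 7.51, 7.65 and 7.73 in WT at 16 °C, 7.37, 7.45 and 6.64 in WT at 23 °C, 9.01, 9.11 and 8.95 in elf3-7 at 16 °C and 9.11, 8.93 and 8.95 in elf3-7 at 23 °C. The genotypes did not overlap, while the difference of differences, 0.45 ± 0.29 (SE), had an unadjusted p of 0.141 in limma and was 1.10 in replicate C against 0.24 and 0.02 in A and B. Of 3 clock output genes, AT1G69570, a DOF-type transcription factor, had 0.98 and the cold-regulated genes COR27 and AT4G33980 had -0.77 and -0.41. Flowering repressors gave -0.45 for SMZ and 0.43 for ATC, and ATC fell by 1.83 in WT (limma adjusted p = 0.0377). The flowering promoters FD and AGL24 gave -0.15 and 0.05. The group means of FD, 3.40 to 3.57, lay near 3.28, the highest array mean of the dim Bacillus controls. The response of FD is therefore hardly told from background.

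None of the growth and auxin genes passed. All 4 represented of 25 had a difference of differences above 0 (48.1% of all genes were), with a median of 0.38. HAT2, an auxin-induced homeobox gene, had 7.70, 7.52 and 7.62 in elf3-7 at 23 °C against 7.26, 7.12 and 7.12 in WT, and it rose with warmth in elf3-7 by 0.84 (limma adjusted p = 0.0311) against 0.14 in WT. Its difference of differences was 0.70 ± 0.29 (SE), with an unadjusted p of 0.0278 in limma. The auxin-response gene IAA29 had 0.50, the expansin EXPA8 0.25 and the auxin synthesis gene YUC2 0.15.

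Cold-response genes went both ways. The dehydrin LTI30 fell by 3.09 in WT and fell by 2.11 in elf3-7 (limma adjusted p = 0.000815 and 0.00559), with a difference of differences of 0.98 ± 0.50 (SE). COR15A, whose protein protects chloroplast membranes, had -1.03 ± 0.54 (SE) and fell by 1.90 in elf3-7 (limma adjusted p = 0.0148), while its close relative COR15B had 0.64. COR47 had 0.39 and the zinc-finger gene STZ 0.14.

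Some defence genes, and 1 of 5 heat shock genes, rose in both genotypes. Of all 22746 probe sets, 2.83% rose in WT and 2.55% in elf3-7, and 574 were called in both, rising or falling. The defensin PDF1.2 rose by 3.79 in WT and 3.39 in elf3-7 (limma adjusted p = 0.00681 and 0.0134), with a difference of differences of -0.40 whose 95% interval ran from -2.42 to 1.62. PDF1.2b rose as well, by 3.68 and 2.94, but its near-identical sequence may share probes with PDF1.2. The ubiquitin ligase gene RING1 rose by 1.59 and 1.17. Among heat shock genes the co-chaperone gene Hop3 rose by 1.40 and 1.46 (limma adjusted p = 0.0288 and 0.0286), with a difference of differences of 0.06. Hop3 had 3.16, 3.10 and 3.74 in elf3-7 at 16 °C, near 3.28, the highest array mean of the dim Bacillus controls. The size of its rise, and so of the 0.06, is therefore uncertain. Fes1A rose in WT and AT5G48570 in elf3-7. With the replicate block Fes1A also rose in elf3-7 (limma adjusted p = 0.0351) and AT5G48570 in WT (limma adjusted p = 0.0299). Their differences of differences were -0.47 and 0.48, the latter with a value of 7.60 in elf3-7 at 23 °C replicate C against 5.48 and 4.84 in A and B. AT1G53540 had -0.27 and ATHSP22.0 0.02.

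Of 5 represented cell division genes (of 17 listed), 4 fell in WT, where 3.98% of all probe sets did, and 1 fell in elf3-7, where 2.32% did. With the replicate letter as a block the counts were 4 and 3, where 1619 and 1309 of all 22746 probe sets fell. All 5 had a difference of differences above 0, with a median of 0.40, and none passed that test. KINESIN-12B, which acts in the dividing cell plate, fell by 1.68 in WT (limma adjusted p = 0.0109) and had -0.84 in elf3-7, and the mitotic kinase gene AUR1 had -1.59 (limma adjusted p = 0.0292) and -1.16 (limma adjusted p = 0.0994, and 0.0375 with the replicate block). The median of the 5 was 0.41 in replicate A and 0.95 in B but -0.32 in C. The core histone genes, 6 in number, had a median of 0.23 and again -0.24 in replicate C, with 0.42 for HTB11 and 0.38 for HTB2.

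The represented starch (3), gibberellin (3) and glucosinolate (2) genes had values below 0, as 51.9% of all genes did. The direction was not that of every replicate: the starch median was 0.16 in replicate B, and the glucosinolate median was 0.20 in A, 0.24 in B and -1.34 in C. The starch gene APL3, a subunit of ADP-glucose pyrophosphorylase, fell by 0.97 in elf3-7 (limma adjusted p = 0.0147) and had a difference of differences of -0.68 with an unadjusted p of 0.0281, and the branching enzyme gene SBE2.2 had -0.11. For gibberellin the receptors GID1A, GID1B and GID1C were represented, with a median of -0.43, and for glucosinolates AT2G31790, at -0.52, and BCAT4, at -0.08. Photosynthesis genes of the nucleus gave 0.33 for LHCB4.2 and -0.48 for LHCB4.3. HYH, a light-signalling factor, had 0.10, and SAG101, a defence regulator, -0.07.

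Genes of the organelle genomes moved by small amounts that differed between replicates. Of 69 plastid genes, 54 were above 0 with a median of 0.12, but the median was -0.32 in replicate A and -0.01 over A and B. psbI had 0.59, and petL had 0.71 with an SE of 1.82. Of 16 mitochondrial genes, 12 were below 0 with a median of -0.18, and 0.20 in replicate C, and nad1 and nad4L had -0.88 and -0.86. Transcripts of 1 organelle share their genome copy number, so these genes are not independent of each other.

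Gene families added few larger values. Among cell wall enzymes, XTH19 had 1.16 ± 0.57 (SE), with 7.34, 7.33 and 6.60 in elf3-7 at 23 °C above the 5.37, 6.13 and 5.65 of WT, and XTH16 had 0.90. XTH19 fell by 1.41 in WT (limma adjusted p = 0.0482) and had -0.25 in elf3-7. The expansins had a median of 0.05, with 0.70 for EXPB3, 0.55 for EXPA15 and 0.16 for the root hair gene EXPA7. The defensin PDF2.5 fell by 3.83 in WT and fell by 2.47 in elf3-7 (limma adjusted p = 0.00455 and 0.0307), and had 1.36 ± 0.84 (SE), while PDF2.1 had 1.03. Of the glutathione transferases, GSTU26 had 0.71 and GSTU25 0.66. The glycosyltransferase UGT76E2 had -0.72, the beta-glucosidases BGLU28 and BGLU19 -0.91 and 0.70, the autophagy genes ATG8E and ATG8F 0.99 and 0.32, and the P450 CYP71B24 -0.44. The auxin-response gene AT3G53250 had -0.64, the peroxidase AT5G66390 0.72 and the late embryogenesis gene AT2G46140 0.88. WRKY53 and WRKY22, defence-related transcription factors, had -0.30 and -0.18.

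**Figure D5:**
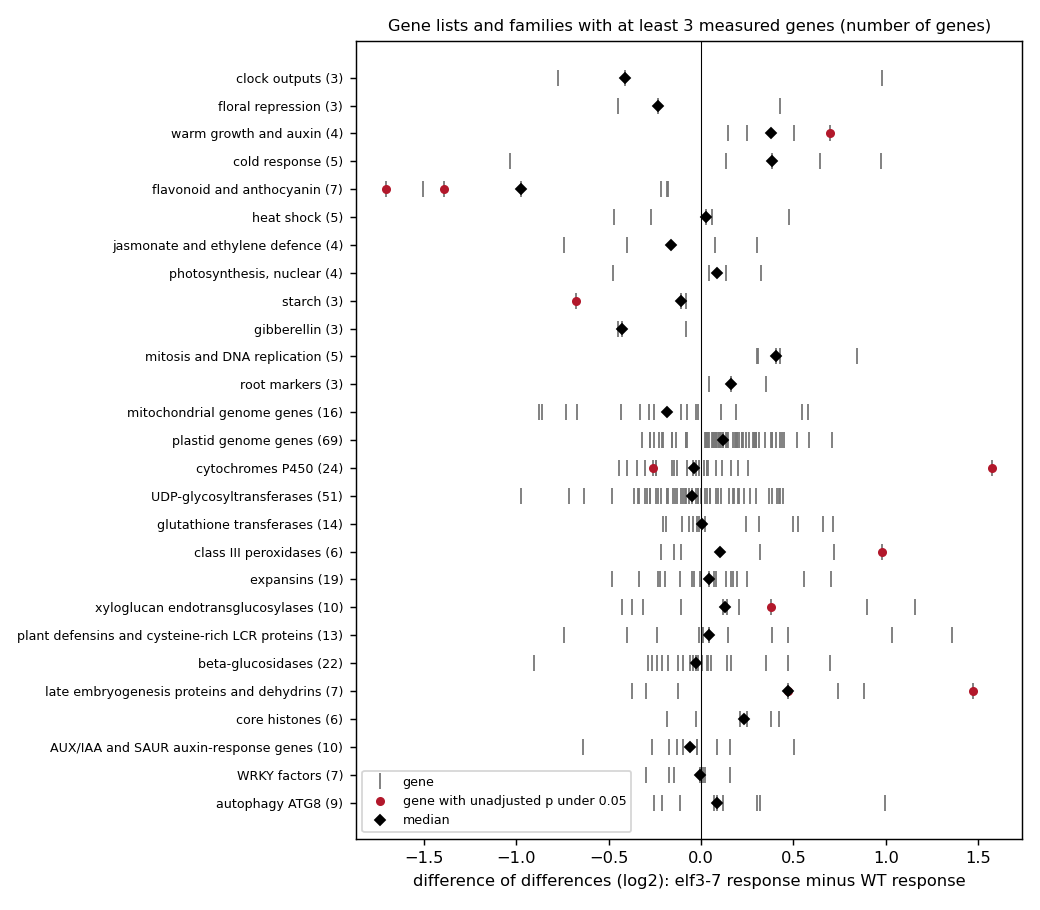
Difference of differences (log2, elf3-7 response minus WT response) of each represented gene in the lists and families with at least 3 such genes (grey ticks), with genes at an unadjusted p under 0.05 in red and the median as a black diamond. The flavonoid and anthocyanin list has the lowest median, -0.97, with all 7 genes below 0; no gene passed the adjusted test.

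At an unadjusted p under 0.01, the largest values in both directions belonged to unnamed probe sets, 264400_at and 259751_at. Of the 110 probe sets at that threshold 56 were unnamed or named several genes, so the 8 largest in each direction were taken from 54 genes. Of all 22746 probe sets 8730 were unnamed and 503 named several genes. The lowest p of the table, an unadjusted 2.12e-05 in limma, belonged to 255056_at, with a difference of differences of -1.08 ± 0.18 (SE) and an adjusted p of 0.482. It had 4.56, 4.85 and 4.49 in elf3-7 at 16 °C and between 3.02 and 3.74 in the other arrays. Its means at 23 °C, 3.23 in WT and 3.15 in elf3-7, were under 3.28, the highest array mean of the dim Bacillus controls. They are therefore not told from background, and the size of its differences is uncertain. 264400_at had 7.20, 8.41 and 7.00 there and between 3.65 and 5.16 elsewhere, with a difference of differences of -2.56 ± 0.59 (SE) and a genotype difference at 16 °C of 3.20 (limma adjusted p = 0.00376). 259751_at and 265724_at were low in elf3-7 at 16 °C, by a difference of -2.44 and -1.35 (limma adjusted p = 0.0246 and 0.0227), and had 2.34 and 1.68. GUT2, a xylan synthesis gene, rose in WT by 0.55 (limma adjusted p = 0.012) and had 0.03 in elf3-7, with a difference of differences of -0.52.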

How the data were processed

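The deposited table holds log2 expression values for 22810 probe sets of an Affymetrix Arabidopsis array, which the authors computed by RMA, as the submitters' processing notes state; its version and the genome build were not given in the sources used here. No further normalization was applied. After 64 control probe sets were left out, 22746 were tested. Of these 13513 name 1 gene (13355 genes), from the platform annotation updated through RefSeq TAIR10.1; 503 name several and 8730 are unnamed here. The brightest probe set stood for a gene. The arrays carry no read depth, so their number limits the precision, and RMA differences tend to understate changes of dim transcripts.

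limma 3.58.1 (R 4.3.3) fitted 1 mean per group to the 18 arrays, with empirical Bayes moderation. Tests are two-sided, Benjamini-Hochberg adjustment covers all 22746 probe sets, and a call is an adjusted p under 0.05. The model was tested on simulated data with known differences of differences, and every changed gene that it called had the right sign. The planted differences were larger than any that the main fit gave for a named item, and the simulated noise held no batch. The check therefore covers the coding of the contrast, and it does not show how well smaller differences are found in these arrays. The labels do not say that a replicate letter marks a shared day. Once group means were subtracted, arrays of 1 letter correlated over 0.1 for every letter between the temperatures in WT (0.30 to 0.55) and in elf3-7 (0.34 to 0.62) and between genotypes at 23 °C (0.27 to 0.43), so letters were taken to pair the arrays there. Between genotypes at 16 °C, and so for the difference of differences, they were not (-0.20 to 0.67). Tables and plots used Python 3.11.15, pandas 2.3.3, numpy 2.4.6 and matplotlib 3.10.9.

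The comparisons, 21 gene lists (295 genes, 57 represented, 4 lists with none) and the naming rule were chosen with earlier results of these data known. The rule takes, as no gene was called, the 8 genes with the largest difference of differences in each direction at an unadjusted p under 0.01, up to 2 members of each list and family by size, and GI, PDF1.2, DFR and LTI30. The patterns of the 15 gene families were revised after a first look at the values, and cyclophilin genes were then taken out of the P450 family. UGT78D1, UGT78D2, CHIL, COR47, COR15B, STZ, YUC2, EXPA8, AT4G33980, Hop3, ATHSP22.0, AT1G53540, GUT2 and the unnamed probe sets, and genes set apart in the closing section, were named after their values were seen. All 94 named items entered the 21 alternatives, except where the dim filter removed them; a planned description of promoter motifs was not run, as no promoter sequences were used here.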

Additional observations from a re-analysis of the deposited data

Results flagged for a closer look

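The class III peroxidase gene AT2G41480 had lower arrays at 23 °C in WT and higher ones in elf3-7, without overlap between temperatures. It had 4.91, 4.30 and 4.44 in WT at 16 °C, 4.22, 4.23 and 4.15 in WT at 23 °C, 4.37, 4.23 and 3.99 in elf3-7 at 16 °C and 4.66, 5.07 and 4.75 in elf3-7 at 23 °C. The difference of differences was 0.98 ± 0.35 (SE), with an unadjusted p of 0.0136 and an adjusted p of 1.0 in limma, so the test of the difference did not pass. It was 1 of 11 probe sets with this order of arrays. Another 21 had the opposite order, and the 32 together were 0.141% of those tested. The gene was named after its values were seen.

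The control probe sets for Bacillus transcripts, which take part in no comparison, had a mean log2 value of at least 4.81 in each of the 4 replicate C arrays, against at most 3.28 in the 8 arrays of replicates A and B.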

How the results depend on the processing

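The difference of differences was recomputed in 21 alternatives, and the count called was 0 in all of them but one. Without elf3-7 at 23 °C replicate A, 2 unnamed probe sets were called: 249082_at, with 3.16 (limma adjusted p = 0.000272), and 253767_at, with 2.04 (limma adjusted p = 0.00452). In elf3-7 at 23 °C 249082_at had 3.17, 6.45 and 6.92 in A, B and C, and 253767_at 4.20, 5.98 and 6.16. Leaving out 1 array in turn thus gave 0 to 2 called, and 433 to 732 at an unadjusted p under 0.05. That count was 871 with the replicate letter as a block, 866 with the labelling batch as a block, 1018 in replicates A and B only, 188 with a filter on dim probe sets (12813 tested) and 1356 with array weights. The warm response counted 3157, 3196, 2592 and 3546 probe sets in WT with the replicate block, the batch block, A and B only and array weights, and 351 to 1668 with 1 array left out. In elf3-7 it counted 2920 and 2948 with the 2 blocks and 4419 with weights, and 209 to 1612. The genotypes at 16 °C differed in 35 with the 12 arrays alone, 120 and 126 with the 2 blocks, 24 with the dim filter and 537 with weights, and 18 to 65; at 23 °C they differed in 11 with that batch as a block, in 17 within A and B, and in 3 to 6. With a gap of 0.5 of the range, a low elf3-7 mean at 16 °C was counted in 12 and no mean apart in 34. Letters pair the arrays within each genotype and at 23 °C, but not across all 4 groups, where 17 of 18 correlations passed 0.1. The replicate block also brought under an adjusted p of 0.05 the WT response of SBE2.2, GID1A, CYP71B24, XTH16, PDF2.1, COR47, COR15B and 255056_at and the elf3-7 response of AT1G69570, AGL24, LHCB4.3, GSTU26, HTB11 and CHIL, beside the 4 calls given with their genes; it ended no call of a named gene in these comparisons. The cause of these shifts was not tested.

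Of the 94 named items 19 changed sign in an alternative, 2 of them (EXPA15 and petL) with a value of at least 0.5. In replicates A and B only, AT5G48570 had -0.30, SBE2.2 0.03, BCAT4 0.83, CHIL 0.00, UGT78D1 0.15, STZ -0.15 and Hop3 -0.36. With array weights SBE2.2 had 0.09, EXPA7 -0.23, EXPA8 -0.33 and ATHSP22.0 -0.16, and with equal array medians ATHSP22.0 had -0.01. With 1 array left out the ranges were -0.13 to 0.39 for AGL24, -0.01 to 0.29 for HYH, -0.33 to 1.04 for AT5G48570, -1.01 to 0.09 for PDF1.2, -0.19 to 0.07 for SAG101, -0.25 to 0.07 for SBE2.2, -0.05 to 0.84 for AUR1, -0.69 to 0.48 for BCAT4, -0.48 to 0.70 for EXPA7, -0.33 to 1.74 for petL, -0.10 to 0.94 for EXPA15, -0.11 to 0.82 for HTB2, -0.47 to 0.05 for CHIL, -0.58 to 0.05 for UGT78D1, -0.33 to 0.47 for STZ, -0.15 to 0.55 for EXPA8, -0.36 to 0.49 for Hop3, -0.12 to 0.13 for ATHSP22.0 and -0.59 to 0.18 for AT1G53540. Of 588 recomputed list medians 28 moved beyond their spread. The planned promoter motif description was not run. Signal over background limits dim probe sets, since the dim Bacillus controls themselves had array means up to 3.28. Each is a mean of 24 probe sets, so single control probe sets may read higher. FD, WRKY53 and ATHSP22.0 had all their group means between 3.27 and 3.59, and AT2G16980 had 3.31 in WT at 23 °C. AT1G49570 had single arrays down to 3.18, as AT1G43590 had in elf3-7 at 23 °C, and PDF2.5 had 3.15 in WT at 23 °C replicate A. Hop3 had a mean of 3.33 in elf3-7 at 16 °C. AT1G53540 had means of 3.41 in WT and 3.47 in elf3-7 at 16 °C. Other named genes near 3.28 were not counted. The size of the differences of these genes is therefore uncertain.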
